A study of Mus musculus with 18 samples.

Results

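Across 18 RNA-seq libraries of mouse cells on the way to motor neurons, 10 cholinergic genes were followed: Chat, Slc18a3, Slc5a7 and Ache, which make, load, recycle and break down acetylcholine, the nicotinic receptor subunit genes Chrna3, Chrna4, Chrna7, Chrnb2 and Chrnb4, and the muscarinic receptor gene Chrm2. They were chosen by name for their function and are 10 of the 27179 genes counted. All 10 passed the filter on low counts that left 20944 genes to test. The libraries came from mouse embryonic stem cells patterned with retinoic acid and a Hedgehog agonist, with 3 libraries per group from independent differentiations. The iHoxc6, iHoxc8, iHoxc9 and iHoxc10 groups are lines with a single Flag-tagged copy of that Hox gene at the Hprt locus, switched on by 3 µg/ml doxycycline on day 2 and collected 48 h later, on day 4. The control group is the iHoxc6 line on day 4 without doxycycline, and the day2 group is progenitors of another line, named iCre, on day 2 without doxycycline. Each Hox gene was thus expressed from a transgene in a line of its own, and the day 4 cultures hold interneurons beside postmitotic motor neurons.

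Motor neurons use acetylcholine as their transmitter. Chat (choline acetyltransferase) makes it, Slc18a3 (the vesicular acetylcholine transporter) packs it into vesicles, Ache (acetylcholinesterase) splits it after release, and Slc5a7 (the high-affinity choline transporter) takes the choline back up. Nicotinic receptors are cation channels assembled from subunits: Chrna4 with Chrnb2 form the commonest type in the brain, Chrna3 with Chrnb4 the main type of autonomic ganglia, and Chrna7 forms channels of its own. Chrm2 encodes a receptor that couples to inhibitory G proteins.

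The positions of these genes tie some of them together. Slc18a3 (chromosome 14, 32462437 to 32464850, GRCm38) lies inside the span of Chat (chromosome 14, 32408203 to 32465909) on the same strand, and its start is 1059 bases downstream of the Chat start. In the GENCODE annotation of this build their exons share 0 bases. Chrna3 (chromosome 9, 55010117 to 55026562) and Chrnb4 (chromosome 9, 55028154 to 55048953) are neighbors on the same strand, 1591 bases apart. Chrna5, another subunit gene, overlaps the span of Chrna3 on the opposite strand, with 0 shared exon bases in GENCODE. Chrnb2 lies at chromosome 3, 89753448 to 89764632, in RefSeq, and its GENCODE model starts at 89746195. In GENCODE it shares 1365 exon bases, 16.3% of its exon length, with Adar on the opposite strand. Chrm2 (chromosome 6, 36387991 to 36528638 in RefSeq) shares 142 exon bases, 2.35% of its length, with 9330158H04Rik on the opposite strand in GENCODE. Reads were counted on RefSeq genes, for which shared exon bases were not measured. The strand setting of the counting is not given in the sources used here either, so the counts of Chrnb2 and Chrm2 are uncertain by an unknown amount. Slc5a7 lies at chromosome 17, 54273590 to 54299038, Ache at chromosome 5, 137288247 to 137294466, Chrna4 at chromosome 2, 181022311 to 181043579, and Chrna7 at chromosome 7, 63098692 to 63212526.

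The 250 bases before the start of 3 members are shown, because Chrna3 and Chrnb2 moved in opposite directions in iHoxc10 neurons and Slc18a3 starts within the Chat locus. They were taken from RefSeq on GRCm38.p6, where all 10 members matched an entry, and run 5′ to 3′ on the minus strand, as the genes do. Capitals mark TAAT and TTAT, short cores that homeodomain proteins bind, and GGGCGG, a GC box, searched on both strands.
Slc18a3, chr14:32464851-32465100: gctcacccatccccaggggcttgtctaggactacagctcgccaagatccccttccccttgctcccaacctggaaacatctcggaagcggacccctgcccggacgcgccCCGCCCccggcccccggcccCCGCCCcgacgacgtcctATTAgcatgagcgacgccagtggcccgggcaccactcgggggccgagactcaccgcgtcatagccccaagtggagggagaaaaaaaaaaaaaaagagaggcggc
Chrna3, chr9:55026563-55026812: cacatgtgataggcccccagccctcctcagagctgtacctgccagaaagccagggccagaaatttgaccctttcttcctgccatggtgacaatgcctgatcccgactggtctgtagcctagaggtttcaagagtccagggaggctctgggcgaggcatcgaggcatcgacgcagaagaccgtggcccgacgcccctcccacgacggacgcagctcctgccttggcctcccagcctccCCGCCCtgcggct
Chrnb2, chr3:89764633-89764882: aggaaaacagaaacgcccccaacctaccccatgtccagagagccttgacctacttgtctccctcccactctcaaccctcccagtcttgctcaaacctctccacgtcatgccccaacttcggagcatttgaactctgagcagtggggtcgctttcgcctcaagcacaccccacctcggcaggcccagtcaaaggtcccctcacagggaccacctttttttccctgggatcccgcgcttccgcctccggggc
The Slc18a3 window held 1 TAAT and 2 GGGCGG, the Chrna3 window 1 GGGCGG, and the Chrnb2 window 0 of the 3 motifs. Among 32851 upstream windows of the same length in the RefSeq table, 54.9% held TAAT, 60.9% TTAT and 32.7% GGGCGG. Over all 10 members, TAAT was found in the windows of Slc18a3 and Chrm2, and TTAT in that of Slc5a7. The GC content of the member windows ran from 45.6% (Slc5a7) to 74.4% (Chrna4), against a median of 52.4% over all windows. Its part in the motif counts was not tested. The largest overlaps with GENCODE exons were in 3 windows. Exons of 9330158H04Rik, on the opposite strand, covered 250 bases of the Chrm2 window. The genes' own exons covered 235 bases of the Chrnb4 window and 128 of the Chrna4 window. The Chrna4 (181039178 to 181039427) and Chrnb4 (55048545 to 55048794) windows lie inside the gene spans given earlier, so they do not precede the outermost starts. Gm2990, a GENCODE antisense transcript, overlaps 59 bases of the Slc18a3 window, and no GENCODE exon overlaps the Chrna3 and Chrnb2 windows. A match is a run of letters and was not tested for binding.

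Total counts ranged from 24498630 to 33168533 per library. A count of 3, the smallest taken as seen, is worth 0.0904 to 0.122 CPM, where CPM is a gene's share of its library scaled so that libraries can be compared. This floor reflects counting error alone. Levels are CPM scaled by edgeR's TMM factors. Fold changes are from edgeR's quasi-likelihood test, fitted to all 18 libraries at once, and a gene was called at an adjusted p below 0.01 (Benjamini-Hochberg over all 20944 genes). Control and iHoxc6 libraries shared a sequencing run, as did iHoxc9 and iHoxc10 libraries, while day2 and iHoxc8 libraries each had a run to themselves. In comparisons across runs, the effects of run, line and Hox gene (for day2, the day as well) cannot be told apart. All induced libraries had doxycycline, and the control and day2 libraries had none. Doxycycline and Hox gene thus cannot be told apart in any comparison of an induced line with these groups, within a run or not. Between iHoxc9 and iHoxc10, line and Hox gene cannot be told apart either. In bulk RNA, fewer cells of a type and less RNA per cell cannot be told apart either. The summed level of 7 pan-neuronal markers was 299 to 613 CPM in day2 libraries and 5594 to 8198 CPM in day 4 libraries. The 6 skeletal muscle markers summed to 2.66 to 4.81 CPM on day 4, with Myf5 at 0 in all 15 libraries, and the 4 erythroid markers measured summed to at most 3.43 CPM.

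**Figure D1:**
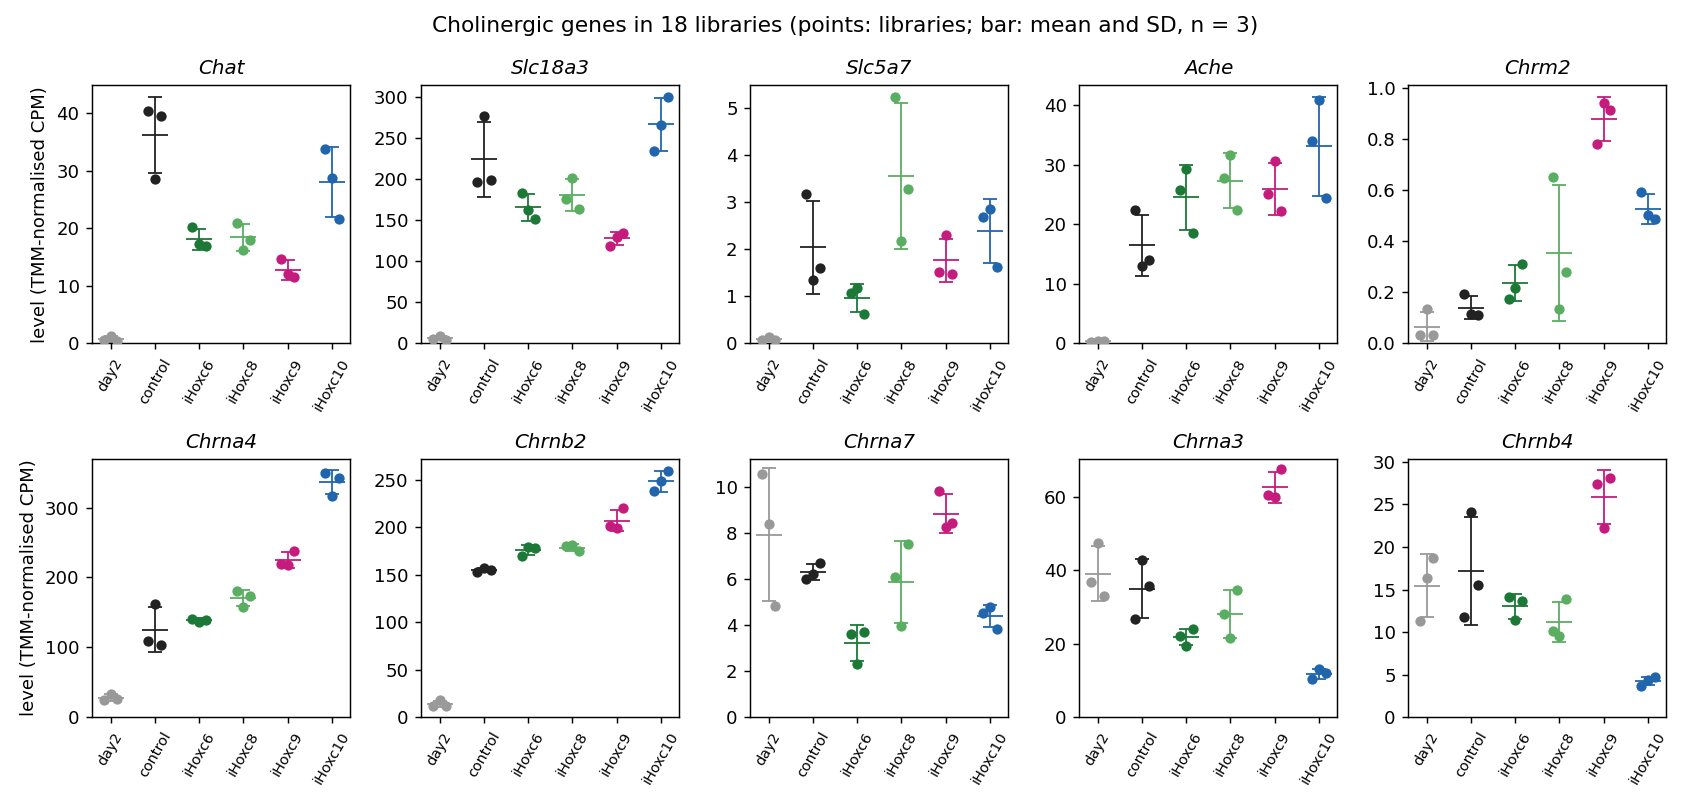
Level of each cholinergic gene in every library (vertical axes, TMM-normalised CPM from 0, with a scale per panel) for the 6 groups. Points are libraries and bars the mean and SD of 3. The highest groups by mean are iHoxc9 for Chrna3 (62.7 CPM) and Chrnb4 (25.9 CPM), and iHoxc10 for Chrna4 (336.4 CPM) and Chrnb2 (248.7 CPM).

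Most of the transmitter machinery appeared between day 2 and day 4. From day2 to control, 6 of the 10 members rose and 0 fell, where 21.2% of all tested genes rose and 21.2% fell. The median log2 fold change was 2.83 over the members and 0.00 over all genes. Slc18a3 was 4.75, 8.82 and 4.62 CPM in the day2 libraries and 196.0, 277 and 199 CPM in control. Every control library was above every day2 library, for a log2 fold change of 5.21 (SE 0.23, adjusted p = 2.97e-14 by edgeR). Ache went from 0.303, 0.333 and 0.437 CPM to 22.4, 13.1 and 13.9 CPM, and its log2 fold change was 5.50 (SE 0.31, adjusted p = 1.37e-12 by edgeR). Slc5a7 was seen with 2, 4 and 2 counts on day 2 and with 99, 35 and 43 counts in control (log2 fold change 4.50, SE 0.53, adjusted p = 1.83e-07 by edgeR). The choline transporter had the lowest mean of the transmitter genes per kilobase in each day 4 group. Chat rose by 5.55 on the log2 scale.

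The receptor genes divided at the same step. Chrnb2 rose from 11.6, 17.9 and 11.8 CPM to 153, 157 and 155 CPM (log2 fold change 3.49, SE 0.15, adjusted p = 2.61e-14 by edgeR). Chrna4 rose from 24.3, 33.05 and 26.5 CPM to 109, 162 and 103 CPM (log2 fold change 2.16, SE 0.16, adjusted p = 1.05e-10 by edgeR). Chrna3, Chrnb4, Chrna7 and Chrm2 did not pass the test, with log2 fold changes of -0.16, 0.15, -0.33 and 1.07 and adjusted p from 0.23 to 0.629 by edgeR. Chrna3 was already 36.9, 47.4 and 33.1 CPM on day 2 and Chrnb4 11.4, 16.4 and 18.7 CPM, and these libraries overlapped those of control. Levels per kilobase of exon put genes of different length on 1 scale. They divide counts on RefSeq genes by GENCODE exon lengths, so comparisons between genes also depend on how these annotations differ. On this scale Chrna3 was 7.43 ± 1.41 and Chrna4 5.56 ± 0.91 CPM on day 2 (SD, n = 3). In control, on the same scale, Chrna3 was 6.66 ± 1.54 and Chrna4 24.9 ± 6.40 CPM.

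The induced lines were compared with day2 in the same way. In iHoxc6, 6 members rose and 2 fell (22.7% and 23.9% of all genes), and in iHoxc8 7 rose and 0 fell (22.3% and 22.3%). In iHoxc9 9 rose and 0 fell (23.4% and 23.3%), and in iHoxc10 7 rose and 3 fell (24.1% and 26.1%). Chat, Slc18a3, Slc5a7, Ache, Chrna4 and Chrnb2 rose in each of the 5 day 4 groups. Chrna3 was called in both directions: it was higher than day2 in iHoxc9 (log2 fold change 0.68, adjusted p = 0.00248 by edgeR) and lower in iHoxc6 (-0.84, adjusted p = 0.000397 by edgeR) and iHoxc10 (-1.73, adjusted p = 3.75e-08 by edgeR). The call in iHoxc9 was lost without day2 replicate 1, day2 replicate 3 or iHoxc9 replicate 3 (adjusted p up to 0.0174 by edgeR). Chrnb4 was called higher in iHoxc9 (0.74, adjusted p = 0.00627 by edgeR, above 0.01 in 6 of 12 other settings, among them those without day2 replicate 1 or 2 or iHoxc9 replicate 1 or 3, and up to 0.0651) and lower in iHoxc10 (-1.87, adjusted p = 3.99e-07 by edgeR). The fall of Chrna7 in iHoxc10 (adjusted p = 0.00568 by edgeR) was lost in 5 of 12 other settings, namely a fit of just these groups and without day2 replicate 1 or 2 or iHoxc10 replicate 1 or 3 (adjusted p up to 0.0577). The rise of Chrm2 in iHoxc8 (adjusted p = 0.00194 by edgeR) was lost in 4 of 12, namely a fit of just these groups and without day2 replicate 1 or 3 or iHoxc8 replicate 1 (adjusted p up to 0.041). All of these comparisons share the day2 libraries.

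Levels of the transmitter genes differed widely on day 4. Per kilobase of exon, Slc18a3 had the highest mean of the 10 members in all 5 day 4 groups, from 53.0 ± 3.31 CPM in iHoxc9 to 110.5 ± 13.6 CPM in iHoxc10 (SD, n = 3). Chat, whose locus encloses it, lay on that scale between 2.71 ± 0.35 CPM in iHoxc9 and 7.70 ± 1.40 CPM in control. The ratio of Slc18a3 to Chat per kilobase was 9.45 to 18.9 in the control libraries, 17.5 to 18.4 in iHoxc6, 16.4 to 24.1 in iHoxc8, 15.9 to 22.8 in iHoxc9 and 13.6 to 27.1 in iHoxc10. Each of these ranges overlapped all the others. Slc5a7 was 0.171 ± 0.053 CPM per kilobase in iHoxc6, the lowest day 4 mean, and 0.631 ± 0.275 CPM per kilobase in iHoxc8, the highest.

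Induction of Hoxc6 or Hoxc8 gave no called change among the cholinergic genes. In iHoxc6 against control 0 members were higher and 0 lower, against 0.363% and 0.224% of all genes, although 6 had an unadjusted p below 0.05 by edgeR and DESeq2 called 3, where it called 570 of all 20944 genes. In iHoxc8 the counts were again 0 and 0, against 1.03% and 1.09% of all genes, with 6 members at an unadjusted p below 0.05 and 1 call by DESeq2, which called 1336 of all 20944 genes there. The share of all genes with an unadjusted p below 0.05 was not counted, so neither count of 6 can be read as an excess. Chat was 20.2, 17.2 and 16.8 CPM in iHoxc6 and 20.9, 16.3 and 17.98 CPM in iHoxc8, below all 3 control libraries (40.4, 28.6 and 39.6 CPM). Its log2 fold changes of -1.001 and -0.976 had adjusted p = 0.0204 and 0.0113 by edgeR. DESeq2 called both, as did edgeR without control replicate 2, the control library with the lowest Chat. Over all genes, edgeR called 76 higher and 47 lower in iHoxc6, and 215 higher and 228 lower in iHoxc8. Without control replicate 2 it called 1090 genes in iHoxc6 and 1575 in iHoxc8, so the number of calls depends strongly on that library. Between these lines, Slc5a7 differed: it was 1.08, 1.18 and 0.625 CPM in iHoxc6 and 5.24, 2.17 and 3.28 CPM in iHoxc8. All iHoxc6 libraries were lower, for a log2 fold change of -1.88 (SE 0.36, adjusted p = 0.00266 by edgeR), across sequencing runs. The 5 motor neuron markers other than Chat and Slc18a3 summed to 375 to 473 CPM in control. They summed to 292 to 334 CPM in iHoxc6 (1 lower, 0 higher) and 296 to 328 CPM in iHoxc8 (3 lower, 0 higher). The 3 hindbrain visceral motor neuron markers summed to 58.7 to 69.4 CPM in iHoxc8 (1 higher, 0 lower) against 32.9 to 36.3 CPM in control. The part of these shifts in the cholinergic values was not tested.

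**Figure D2:**
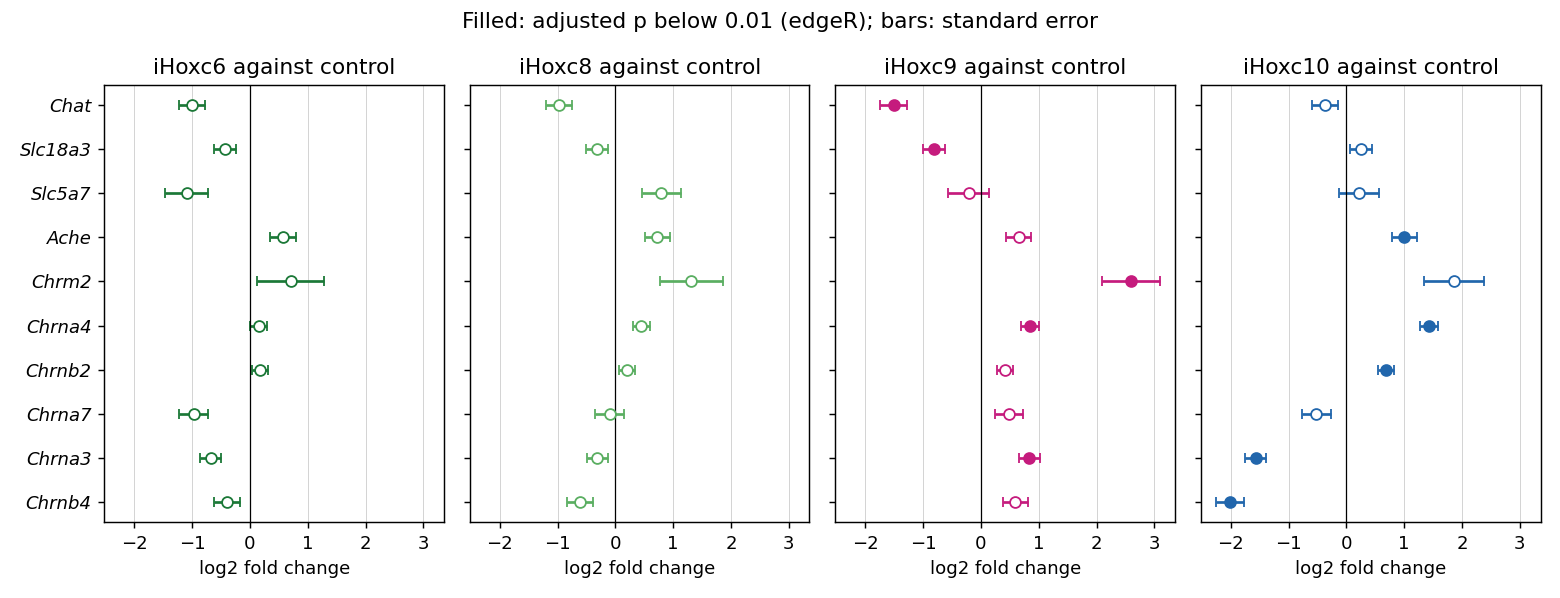
Log2 fold change of each cholinergic gene in the induced lines against control (horizontal axes, bars are the SE). Filled points have an adjusted p below 0.01 by edgeR, 0 of 10 genes in iHoxc6 and iHoxc8 and 5 of 10 in iHoxc9 and in iHoxc10, all panels sharing the same control libraries.

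In iHoxc9 neurons the genes for making and loading acetylcholine were lower and 3 receptor genes higher than in control. Of the 10 members, 3 rose and 2 fell, against 6.95% and 7.13% of all genes. The median log2 fold change was 0.54 over the members and 0.00 over all genes. At a log2 fold change beyond 2 as well, 1 member (Chrm2) was called, against 2.7% of all genes. Slc18a3 was 119, 130.1 and 135 CPM in iHoxc9, below all 3 control libraries, and its log2 fold change was -0.81 (SE 0.19, adjusted p = 0.00311 by edgeR). That call was lost without control replicate 2, iHoxc9 replicate 1 or iHoxc9 replicate 2, with an adjusted p up to 0.0198. Chat was 14.6, 12.1 and 11.5 CPM, the lowest of the day 4 groups, and its call (log2 fold change -1.51) held in all 12 other settings tried. Slc5a7 (-0.21, adjusted p = 0.721 by edgeR) and Ache (0.65, adjusted p = 0.0315 by edgeR) did not pass the test.

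Of the receptor genes, Chrna4 was 219, 218 and 238 CPM in iHoxc9, above all control libraries (log2 fold change 0.85, SE 0.15, adjusted p = 0.000287 by edgeR). Chrna3 was 60.5, 60.1 and 67.6 CPM against 26.6, 42.8 and 35.7 CPM in control, with no overlap (log2 fold change 0.84, SE 0.18, adjusted p = 0.00156 by edgeR). The Chrna3 call was lost without control replicate 1 or iHoxc9 replicate 3 (adjusted p up to 0.0146). Chrm2 was rare throughout: it had 6, 3 and 3 counts in control and 20, 32 and 23 counts in iHoxc9. Its log2 fold change was 2.59 (SE 0.49, adjusted p = 0.00054 by edgeR), at 0.782 to 0.942 CPM in iHoxc9. Chrnb4 (0.60), Chrna7 (0.49) and Chrnb2 (0.42) had adjusted p = 0.0529, 0.166 and 0.0291 by edgeR.

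Markers of other cell types moved with these values in iHoxc9. Of 6 excitatory interneuron markers 3 were called higher and 0 lower. Slc17a6 was 0.0749 to 0.308 CPM in control and 10.1 to 14.9 CPM in iHoxc9. Sim1 was 0.308 to 0.739 CPM in control and 15.2 to 19.6 CPM in iHoxc9. Without a call, Lmx1b, Evx1 and Barhl2 had lower means in iHoxc9 (0.30, 0.34 and 0.0098 CPM) than in control (1.05, 0.71 and 0.061 CPM). The 5 motor neuron markers other than Chat and Slc18a3 summed to 170 to 188 CPM in iHoxc9 and 375 to 473 CPM in control, with 3 lower. All 3 hindbrain visceral motor neuron markers were lower, with a sum of 7.16 to 12.8 CPM in iHoxc9 and 32.9 to 36.3 CPM in control. Of 7 ventral progenitor markers 1 was higher and 2 were lower, of 6 glial markers 1 was higher and 1 lower, and of 6 inhibitory interneuron markers 1 was lower. The part of these shifts in the cholinergic differences was not tested.

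In iHoxc10 neurons Ache and the Chrna4 and Chrnb2 subunit genes were higher than in control, and Chrna3 and Chrnb4 lower. The counts were 3 members higher and 2 lower, against 6.67% and 7.75% of all genes, and 1 member (Chrnb4) was also past a log2 fold change of 2, against 1.48% of all genes. Chrna4 was 349.8, 317 and 342 CPM, above every library of every other group, and its log2 fold change was 1.43 (SE 0.15, adjusted p = 8.97e-07 by edgeR). Chrnb2 was 238, 248 and 259.8 CPM, also above every other library (log2 fold change 0.68, SE 0.14, adjusted p = 0.000864 by edgeR). Ache was 34.0, 40.8 and 24.3 CPM, above the control libraries but overlapping the other induced lines (log2 fold change 1.00, SE 0.22, adjusted p = 0.00171 by edgeR). The Ache call was lost without control replicate 3 or iHoxc10 replicate 2 (adjusted p up to 0.0231).

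The neighbors Chrna3 and Chrnb4 went the other way in iHoxc10. Chrna3 was 10.4, 13.1 and 11.9 CPM, below every library of every other group (log2 fold change -1.57, SE 0.19, adjusted p = 3.65e-06 by edgeR). Chrnb4 was 3.68, 4.41 and 4.66 CPM against 11.7, 24.1 and 15.6 CPM in control (log2 fold change -2.01, SE 0.24, adjusted p = 3.12e-06 by edgeR). Both calls held in all 12 other settings tried. Chat (-0.37, adjusted p = 0.255 by edgeR) and Slc18a3 (0.25, adjusted p = 0.373 by edgeR) did not pass the test in iHoxc10. The 5 motor neuron markers summed to 247 to 261 CPM there, with 3 lower than in control, and 3 of 7 pan-neuronal markers were higher. Of 6 excitatory interneuron markers 1 was higher and 0 lower. This was Sim1, at 3.44 to 7.63 CPM in iHoxc10 (log2 fold change 3.49, adjusted p = 4.9e-07 by edgeR against control). Of 7 ventral progenitor markers 3 were lower, with a sum of 997 to 1192 CPM against 819 to 1543 CPM in control. Among 3 hindbrain visceral motor neuron markers 1 was lower, with a sum of 31.2 to 48.7 CPM against 32.9 to 36.3 CPM in control. Of 6 glial markers 1 was higher, with a sum of 137 to 167 CPM against 89.0 to 111 CPM in control. Their part in these differences was not tested.

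The comparison of iHoxc9 with iHoxc10 lies within a run, though between lines. There 2 members were higher in iHoxc9 and 2 lower, against 2.6% and 2.4% of all genes, and 2 were past a log2 fold change of 2 as well, against 1.31%. Chrna3 differed by 2.41 (SE 0.19, adjusted p = 1.1e-08 by edgeR) and Chrnb4 by 2.61 (SE 0.24, adjusted p = 1.01e-07 by edgeR), both higher in iHoxc9. Slc18a3 was 119 to 135 CPM in iHoxc9 and 235 to 300.0 CPM in iHoxc10, a log2 difference of -1.06 (SE 0.19, adjusted p = 0.000557 by edgeR). Chat was lower by a log2 difference of -1.14, a call lost without iHoxc9 replicate 2, iHoxc9 replicate 3 or iHoxc10 replicate 1 (adjusted p up to 0.0168 by edgeR). Chrna4 (-0.58, adjusted p = 0.0152 by edgeR) and Chrna7 (1.01, adjusted p = 0.0113 by edgeR) had libraries that did not overlap but missed the threshold. A block for the replicate number over all 18 libraries left 4 members called. That block fits the same replicate effects in all groups, although same-numbered libraries of other groups had correlations down to -0.51. It is thus not a test of the pairing of iHoxc9 with iHoxc10 by itself. A fit of these 6 libraries alone with the block, added after the data were seen, called 8, and is described with its limits in the closing section.

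Which subunits made up the nicotinic total differed between groups. Of the summed level of 11 neuronal subunit genes per kilobase of exon, Chrna4 and Chrnb2 took 28.9% to 32.0% in day2 libraries, 71.9% to 77.4% in control, 82.3% to 84.7% in iHoxc6, 79.6% to 85.3% in iHoxc8, 71.3% to 73.1% in iHoxc9 and 93.4% to 94.3% in iHoxc10. Chrna3, Chrnb4 and Chrna5 took 60.2% to 63.6% in day2, 24.9% to 26.4% in iHoxc9 and 4.70% to 5.45% in iHoxc10, with control at 19.8% to 26.1%. The iHoxc9 and control shares overlapped, and iHoxc10 lay apart from every other group. The ratio of Chrna3 to its neighbor Chrnb4 per kilobase was 1.11 to 2.11 over the day 4 libraries. The ratio of Chrna4 to Chrnb2 per kilobase was 1.11 to 1.72 in control, 1.81 to 1.82 in iHoxc9 and 2.13 to 2.45 in iHoxc10. These shares and ratios are descriptions, with no test. Their size depends on the GENCODE exon lengths, while reads were counted on RefSeq genes. The GENCODE model of Chrnb2 starts at 89746195 and the RefSeq gene at 89753448, and that of Chrna4 at 181018380 against 181022311. The effect of this on the shares and ratios was not tested.

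**Figure D3:**
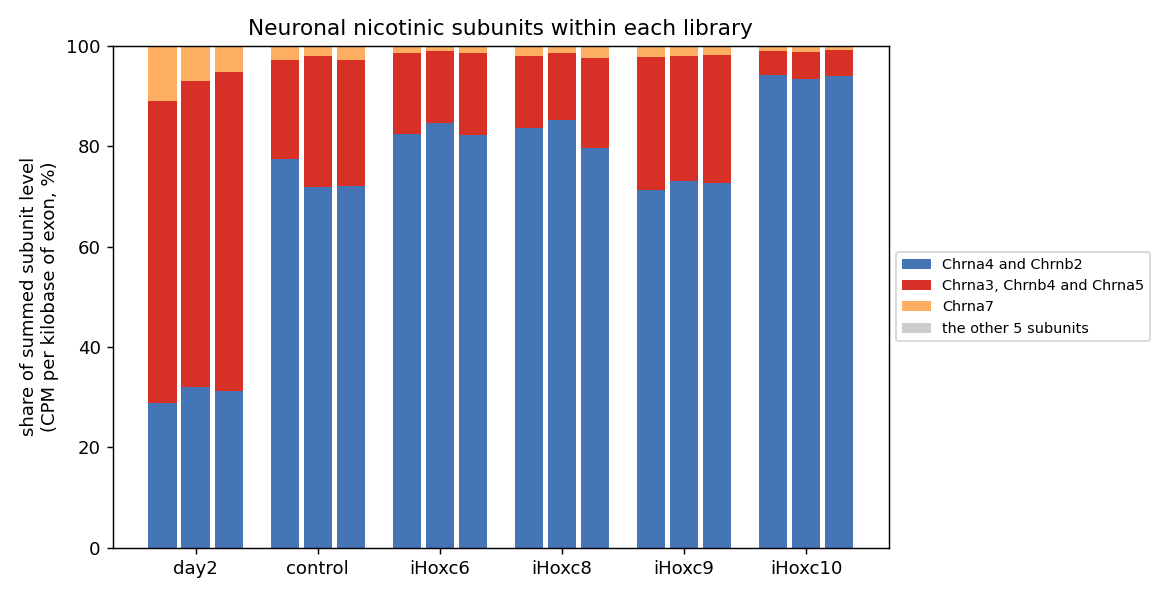
Share of each library's summed neuronal nicotinic subunit level (vertical axis, CPM per kilobase of exon, %) in 4 sets of subunit genes. Bars are single libraries, 3 per group. Chrna4 and Chrnb2 hold 28.9% to 32.0% in day2 and 93.4% to 94.3% in iHoxc10.

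Few neighbors in the order of group levels were separated. For Chrna3 the order by mean was iHoxc9, day2, control, iHoxc8, iHoxc6 and iHoxc10, and the steps from iHoxc9 to day2 (adjusted p = 0.00248 by edgeR) and from iHoxc6 to iHoxc10 (adjusted p = 0.00175 by edgeR) passed the test. For Chrnb4 the step into iHoxc10, from iHoxc8, passed (log2 difference 1.40, adjusted p = 0.000574 by edgeR). For Chrna4 and Chrnb2 the order was iHoxc10, iHoxc9, iHoxc8, iHoxc6, control and day2, and the step from control to day2 passed. For Chat, Slc18a3, Slc5a7 and Ache, only the step to day2 passed as well. For Chrna7 no step passed: its means ran from 8.84 ± 0.85 CPM in iHoxc9 to 3.22 ± 0.79 CPM in iHoxc6 (SD, n = 3), groups that differed from each other by 1.46 on the log2 scale (adjusted p = 0.000269 by edgeR). For Chrm2 no step passed either, from iHoxc9 (0.880 ± 0.085 CPM) down to day2 (0.066 ± 0.058 CPM, under 3 counts' worth).

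Other genes of the cholinergic system were counted by list, each with the members in it. The shares of all genes called higher and lower than control were, for iHoxc6, 0.363% and 0.224%, for iHoxc8, 1.03% and 1.09%, for iHoxc9, 6.95% and 7.13%, and for iHoxc10, 6.67% and 7.75%. Of 10 genes for synthesis, transport and breakdown, 1 was higher and 3 lower in iHoxc9 than in control, 1 higher in iHoxc10, and 0 called in iHoxc6 and iHoxc8. Of 11 neuronal nicotinic subunits, 1 was lower in iHoxc6, 3 were higher in iHoxc9, and 2 were higher and 2 lower in iHoxc10. Of 5 muscarinic receptors, 1 was higher and 1 lower in iHoxc9. Of 8 nicotinic receptor chaperones and lynx-type modulators, 1 was higher in iHoxc8, 3 were higher and 2 lower in iHoxc9, and 2 were higher in iHoxc10. Of 8 transcription factors of motor neuron identity, 1 was lower in iHoxc6, 1 higher and 2 lower in iHoxc8, 4 lower in iHoxc9 and 3 lower in iHoxc10. The 4 muscle subunit genes tested and the 5 organizers of the nerve-muscle synapse gave 0 calls against control. Medians of these lists lay between -0.88 and 1.06 on the log2 scale, against 0.00 to 0.02 over all genes. Both extremes come from short lists with genes under the floor of 3 counts. The lowest was that of the muscle subunits in iHoxc8, where Chrna1 and Chrne had a mean of 0 CPM and Chrng 0.032 CPM. The highest was that of the muscarinic receptors in iHoxc10, where Chrm1 and Chrm5 had means of 0.012 and 0.0135 CPM.

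Outside the members, 15 genes of the lists were called against control in at least 1 line with a mean of at least 1 CPM. The largest changes among receptor partners were in iHoxc9. Lypd6, a lynx-type modulator of nicotinic receptors, was 2.89, 2.7 and 1.83 CPM in control and 11.4, 14.8 and 10.8 CPM in iHoxc9 (log2 fold change 2.32, SE 0.24, adjusted p = 3.02e-07 by edgeR). Its rise was not particular to iHoxc9: it was also called higher in iHoxc8 (1.73, adjusted p = 0.000215 by edgeR). In iHoxc6 all libraries were above control without a call (1.01, adjusted p = 0.0291 by edgeR). Lypd1, another of this family, was 78.2, 34.2 and 65.8 CPM in control and 9.0, 17.0 and 11.5 CPM in iHoxc9 (log2 fold change -2.24, SE 0.34, adjusted p = 5.22e-05 by edgeR). These genes of the same family thus moved in opposite directions. Tmem35a, a chaperone for assembly of nicotinic receptors, fell by 1.24 on the log2 scale in iHoxc9 (adjusted p = 1.93e-05 by edgeR), from 54.2 to 65.6 CPM in control to 21.4 to 28.8 CPM. Prima1, which anchors acetylcholinesterase in the membrane, fell by 1.69 (adjusted p = 2.7e-05 by edgeR), while Ache itself was not called there. Against iHoxc10, within a run, Lypd1 (-2.27), Tmem35a (-1.15) and Prima1 (-1.33) were also lower in iHoxc9 and Lypd6 (2.11) was higher, the Prima1 call being lost without iHoxc9 replicate 1 (adjusted p = 0.0101 by edgeR). Ly6e was higher in iHoxc9 (1.09, adjusted p = 0.00113 by edgeR, a call lost without control replicate 3 or iHoxc9 replicate 3) and iHoxc10 (1.28, adjusted p = 0.000248 by edgeR).

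The same rule named the transcription factors Isl2, Lhx4, Lhx3 and Mnx1. Lhx4 was lower in iHoxc10 (-1.66, adjusted p = 5.93e-06 by edgeR). Isl2 was lower in iHoxc10 (-2.61), Lhx3 in iHoxc9 (-1.16) and iHoxc10 (-1.63), and Mnx1 in iHoxc9 (-1.13). Isl2 was also lower in iHoxc6 (-1.57, adjusted p = 0.000316 by edgeR), and both Isl2 (-1.12) and Mnx1 (-0.94) in iHoxc8, where each call was lost without control replicate 3, iHoxc8 replicate 1 or iHoxc8 replicate 3 (adjusted p up to 0.0277 and 0.0143 by edgeR). Chrna5, named after its values were seen because it overlaps Chrna3, was 6.46, 12.3 and 8.38 CPM in control and 19.3, 17.2 and 17.5 CPM in iHoxc9 (log2 fold change 1.00, SE 0.20, adjusted p = 0.000712 by edgeR). In iHoxc10 it was 6.02, 5.41 and 5.67 CPM (log2 fold change -0.66, adjusted p = 0.0184 by edgeR against control). It was thus higher in iHoxc9 than in iHoxc10 by 1.66 (SE 0.20, adjusted p = 4.8e-06 by edgeR), as its neighbors were. In iHoxc6 its call (-1.01, adjusted p = 0.00947 by edgeR) held in 4 of 12 other settings tried.

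**Figure D4:**
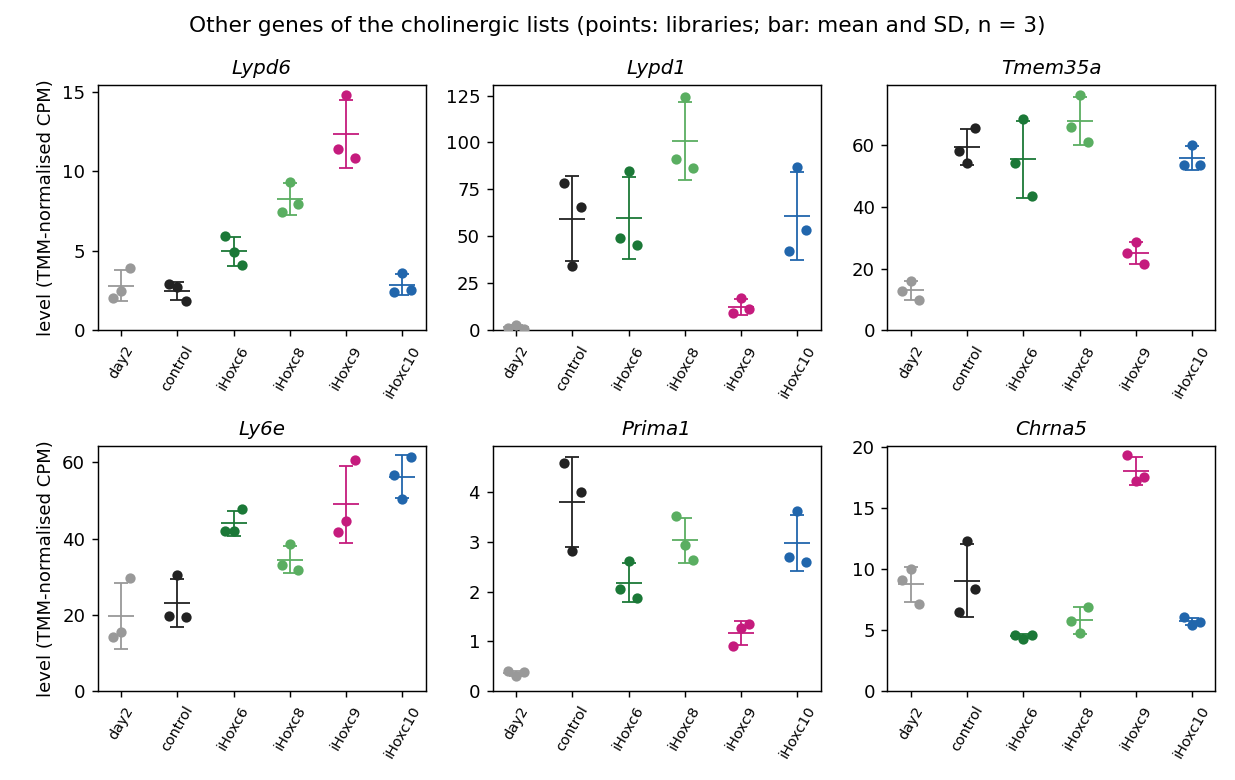
Level of 6 further genes of the cholinergic lists in every library (vertical axes, TMM-normalised CPM from 0, with a scale per panel) for the 6 groups. Points are libraries and bars the mean and SD of 3. In iHoxc9, Lypd6 and Chrna5 have their highest libraries (14.8 and 19.3 CPM), and Lypd1, Tmem35a and Prima1 are below all control libraries.

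The genes whose pattern was most like that of Chat over the 15 day 4 libraries, among 13036 genes, were Crnde (Pearson's r = 0.94), Sstr1 (0.935), Afg3l2 (0.929), Hoxb7 (0.907) and 9030624G23Rik (0.902). The libraries fall into 5 groups of 3, so these values describe the order of the groups, and no test was made of them.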

How the data were processed

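RNA-seq was analysed for 18 libraries, 3 per group, grouped by their labels. Per the labels and the study's methods, the authors aligned reads to mm10 with STAR 2.7.0c and counted them on RefSeq genes with featureCounts (Rsubread), and the deposited values are raw counts per gene, with replicates kept apart. The kit is stranded and the strand setting of the counting is not given in the sources used here. The submitters' processing notes also name DESeq2 1.20.0 and Picard 2.8.2.

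Counts were tested in R 4.3.3 with edgeR 4.0.16 (TMM, quasi-likelihood test, all 18 libraries in 1 fit, no block) over the 20944 of 27179 genes with at least 1 count in an induced library. The standard error (SE) came from the F statistic. Members were called at an adjusted p below 0.01. The fold change threshold of 2, which the study adds, was an alternative. Others were DESeq2 1.42.0, its size factors, at least 10 counts in 3 libraries, no filter, a fit of just the groups in question, a block for replicate number, and leaving out each library. Levels per kilobase used GENCODE exon lengths, which can differ from those of the RefSeq genes counted. The code was tested on simulated data. A fit of iHoxc9 and iHoxc10 alone with the block was added after the results were seen.

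The members and gene lists were chosen with earlier results of these data known. Genes outside the members were named if called against control in at least 1 induced line with a mean of at least 1 CPM, at most 10 by the largest change. Some results for genes of the lists are not reported here. Replicate numbers come from the labels. Same-numbered libraries deviated together in iHoxc9 and iHoxc10 (correlations of 0.58, 0.47 and 0.65 of their deviations from the group means). In the other main comparisons not all 3 correlations passed 0.1. The main fit had no block, so its values for iHoxc9 against iHoxc10 leave this pairing out. With 3 libraries against 3, an exact permutation test of a single value could not reach 0.05, so none was made, and outliers were not tested in groups of 3.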

Additional observations from a re-analysis of the deposited data

Results flagged for a closer look

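The lines iHoxc9 and iHoxc10, sequenced together, differed in 4 of the 10 cholinergic genes, 2 higher and 2 lower in iHoxc9, where 2.6% of all genes were higher and 2.4% lower. The log2 difference of iHoxc9 minus iHoxc10 was 2.41 for Chrna3 and 2.61 for Chrnb4 (adjusted p = 1.1e-08 and 1.01e-07 by edgeR), and all 3 iHoxc9 libraries were higher for both genes. It was -1.14 for Chat and -1.06 for Slc18a3 (adjusted p = 0.00181 and 0.000557 by edgeR), and all 3 iHoxc9 libraries were lower for both.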

How the results depend on the processing

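Chat, Chrna4 and Chrm2 in iHoxc9 against control, Chrna3, Chrna4, Chrnb2 and Chrnb4 in iHoxc10 against control, and Chrna3, Chrnb4 and Slc18a3 between iHoxc9 and iHoxc10 kept direction and call in all 12 other settings tried, apart from the added fit described here. In iHoxc6 against control, 3 members were called by DESeq2 (570 of all 20944 genes) and 0 to 1 with a library left out (45 to 1090 of all genes). In iHoxc8 against control, 1 was called by DESeq2 (1336 of all 20944 genes), with DESeq2's size factors, without the filter and in a fit of just that pair. With a library left out, 0 to 2 were called there (89 to 1575 of all genes). With a fold change beyond 2 as well, 1 was called in iHoxc9, 1 in iHoxc10 and 2 between them. The replicate block changed no member's call. With only iHoxc9 and iHoxc10 in the fit and the replicate block, an alternative chosen after seeing the data, 8 members were called. That fit had 2 residual degrees of freedom and an infinite prior, so every gene took the trended spread, with a biological coefficient of variation of 4.84% against 10.6% without the block, and it called 28.9% of all genes against 11.1%. Its p-values came out implausibly small for 6 libraries and are not given, and the 4 extra calls are not relied on.

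Signs turned in values that were never called, when a library was left out. Against control, the log2 fold change ranged from -0.36 to 0.11 for Chrna7 in iHoxc8, from -0.46 to 0.27 for Slc5a7 in iHoxc9 and from -0.0038 to 0.70 for Slc5a7 in iHoxc10. Against day2 it ranged from -0.33 to 0.0043 for Chrna3 in control, from -0.18 to 0.36 for Chrnb4 in control (also -0.06) and from -0.10 to 0.38 for Chrna7 in iHoxc9. The cause was not tested. Depth limits Chrm2 and day2 Slc5a7, which rest on a few counts per library.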
